A study of Mus musculus with 16 samples.

Results

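The Fc gamma receptors and their common gamma chain are the molecules through which mouse leukocytes read the constant (Fc) part of immunoglobulin G. They comprise the activating receptors Fcgr1, Fcgr3 and Fcgr4, the inhibitory receptor Fcgr2b, and Fcer1g, the common gamma chain. They were chosen by name, through the RefSeq record given for each probe, and all 5 of the 12298 genes tested were measured, by 8 probes in all. Both groups came from C57Bl/6 female mice (called athymic in the treatment text of the labels) 10 days after 10000000 cells of the mouse hepatoma line Hepa1-6 were placed under the skin; the age is not given in the labels. Blood was taken from these mice (8 arrays), and a fraction enriched in infiltrating inflammatory cells was prepared from their mashed tumours on a density gradient (8 arrays). Each array carried such a sample in Cy5 and, in Cy3, blood RNA of untreated female C57Bl/6 mice, with no dye swap. Blood and tumour fraction were extracted with different RNA kits and hybridised on different slides, so kit, slide and group cannot be told apart.

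Fcgr1, Fcgr3 and Fcgr4 bind immunoglobulin G complexes on macrophages, monocytes and neutrophils and have no signalling motif of their own; they pair with Fcer1g, whose activation motif (ITAM) recruits the kinase Syk after phosphorylation by Src-family kinases such as Lyn. Fcgr2b, the single receptor of the family with an inhibitory motif (ITIM), recruits the lipid phosphatase SHIP1, the product of Inpp5d, and dampens signals of the activating receptors and of the B cell receptor. The balance of activating and inhibitory receptors is known to set how strongly myeloid cells respond to antibody-coated targets.

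All but Fcgr1 lie together on mouse chromosome 1 (GRCm38.p6, RefSeq), within 274 kb: Fcgr2b at chr1:170960558-170976071, Fcgr4 at chr1:171018926-171029761, Fcgr3 at chr1:171051169-171065915 and Fcer1g at chr1:171229572-171234349. Fcgr1 lies apart at chr3:96282909-96293969. The 120 bases before a RefSeq transcript start of each gene are given here, 5′ to 3′ on the gene's own strand. They are given because the ratios of Fcgr3, by its brighter probe, and Fcgr4 ran together across samples. The ratio of Fcgr2b also differed between the groups in the opposite direction to that of Fcgr3 by the same probe. Capitals mark the purine-rich core GAGGAAG, of the kind bound by the myeloid factor PU.1 (read on the other strand as CTTCCTC). For Fcgr3, the first of 2 listed starts was used; it lies within the gene's annotated span, downstream of the span's 5′ end, so the window is not upstream of the whole gene. The windows are chr3:96293970-96294089 (minus strand) for Fcgr1, chr1:171059404-171059523 (minus) for Fcgr3, chr1:171018806-171018925 (plus) for Fcgr4, chr1:170976072-170976191 (minus) for Fcgr2b and chr1:171234350-171234469 (minus) for Fcer1g.
Fcgr1: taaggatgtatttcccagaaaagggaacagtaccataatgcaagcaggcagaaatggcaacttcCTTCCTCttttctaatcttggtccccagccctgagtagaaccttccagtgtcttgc
Fcgr3: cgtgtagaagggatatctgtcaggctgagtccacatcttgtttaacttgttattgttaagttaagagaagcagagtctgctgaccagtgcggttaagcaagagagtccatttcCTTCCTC
Fcgr4: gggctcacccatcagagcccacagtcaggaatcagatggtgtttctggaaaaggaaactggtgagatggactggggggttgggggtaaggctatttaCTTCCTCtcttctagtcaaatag
Fcgr2b: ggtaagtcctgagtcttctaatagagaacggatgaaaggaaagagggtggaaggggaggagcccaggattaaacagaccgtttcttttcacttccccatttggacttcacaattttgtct
Fcer1g: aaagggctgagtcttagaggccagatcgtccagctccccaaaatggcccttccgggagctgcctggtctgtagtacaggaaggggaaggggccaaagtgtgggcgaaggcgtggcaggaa

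GAGGAAG, searched on both strands over 250 bases before these starts, was found once for each activating receptor, at bases 56 to 50 before the start used for Fcgr1, 7 to 1 for Fcgr3 and 23 to 17 for Fcgr4. It was not found in that window of Fcgr2b or Fcer1g. Of 27025 RefSeq promoters, 10.4% hold this motif. The motif was chosen after the sequences were seen, and a match describes letters, not a bound site; a window without a match says only that these letters are not in it.

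Before the genes are compared, the reference channel needs a word. Cy3 carried the same label on all 16 arrays, yet its signals correlated at 0.983 to 0.998 among blood arrays, 0.985 to 0.998 among infiltrating-cell arrays and 0.898 to 0.946 between them (Pearson's r of log2 signals over 19320 probes). Transcripts of the hepatoma appeared in it: the median Cy3 signal of Alb (albumin) was 12.8 scanner units on blood arrays and 7560 on infiltrating-cell arrays, and that of Afp (alpha-fetoprotein) was 128 and 3070. Erythroid markers took 34800 to 40500 per 1000000 of the Cy3 signal on blood arrays and 34500 to 42900 on infiltrating-cell arrays. Ratios are therefore given beside both channels, and the part of the Cy3 shift in each ratio is stated where it touches a gene. The Cy5 channel was brighter as a whole on infiltrating-cell arrays: the share of probes well above background was 24.8% to 36.3% on blood arrays and 51.1% to 65.8% on the others. The untreated blood is 1 control sample, so tests against it leave out the spread among untreated mice. The labels give each of the 8 samples of a group its own number and do not name animals, so p-values measure only the spread between these samples, which may be technical.

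In blood of tumour-bearing mice none of the 5 genes was called different from untreated blood (adjusted p under 0.05 and at least 2-fold), against 0.748% of all genes tested. The genes differed in sign under loess, which sets the bulk of probes on an array to a ratio of 1 at each brightness. Fcgr3 and Fcgr4 lay above the reference in 8 of 8 samples, Fcgr2b below it in 8 of 8, and Fcgr1 and Fcer1g near it. Under median and spike-in centring these means moved down, to near 0 or below it: Fcgr3 stood at 0.01 and -0.004, Fcgr4 at -0.06 and -0.07, Fcgr1 at -0.44 and -0.45 and Fcer1g at -0.61 and -0.62, with the median gene at -0.16 and -0.18. Fcgr2b was then called lower, at -1.14 and -1.16.

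Fcgr3 arms natural killer cells and myeloid cells for antibody-dependent killing. By its brighter probe, its log2 ratio in blood was 0.36 at the lowest, 0.59 at the median and 0.99 at the highest. The mean was 0.65 ± 0.067 (SE, n = 8, limma adjusted p = 1.5e-06). Its other probe, A_52_P408757, ran lower, from 0.08 through 0.17 to 0.50, with a mean of 0.24 ± 0.051 (limma adjusted p = 0.0013). Fcgr4, a receptor of monocytes, macrophages and neutrophils for IgG2 antibodies, ran from 0.18 through 0.52 to 0.72, with a mean of 0.49 ± 0.058 (adjusted p = 6.7e-06, limma). All values of both genes were above 0. Fcgr1, the high-affinity receptor, ran from -0.32 through a median of -0.10 to 0.23 (mean -0.11 ± 0.054, adjusted p = 0.14, limma), and 1 of 8 samples was above 0. Its Cy5 spot was well above background on 7 of 8 blood arrays.

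Fcgr2b was read by a probe printed in 10 spots, A_51_P130095. Its log2 ratio in blood was -0.68 at the lowest, -0.54 at the median and -0.37 at the highest, a mean of -0.53 ± 0.043 (SE, n = 8; limma adjusted p = 1.5e-07). The 10 spots of an array scattered with an SD of 0.0653 to 0.168, and the arrays with an SD of 0.11. The other probes of Fcgr2b stood closer to 0, at -0.04 ± 0.044 for A_51_P130101 (adjusted p = 0.51, limma) and -0.10 ± 0.044 for A_52_P545613 (adjusted p = 0.071, limma), and each was above 0 in 3 of 8 samples. The lower ratio of Fcgr2b in blood was thus a reading of its 10-spot probe alone. Fcer1g ran from -0.21 through -0.02 to 0.19, with a mean at 0.005 ± 0.047 (adjusted p = 0.95, limma).

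In infiltrating cells 1 of the 5 genes was called against untreated blood, Fcgr2b, which was higher, beside 19.5% of all genes (9.33% higher and 10.1% lower). The log2 ratio of Fcgr2b was 0.83 at the lowest, in sample 889, 1.34 at the median and 1.77 at the highest, in sample 898. The mean of 1.33 ± 0.099 (SE, n = 8) was 2.52-fold above untreated blood (limma adjusted p = 1.5e-06). All 8 fractions lay above every blood sample. The other probes of the gene also lay above 0 in 8 of 8 fractions, by less: 0.68 ± 0.146 for A_51_P130101 and 0.83 ± 0.066 for A_52_P545613, neither at 2-fold. With each gene taken as the mean of its probes, Fcgr2b came to 0.95 in infiltrating cells and 0 of the 5 genes were called.

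With Fcgr3 read by its brighter probe, the activating receptors took no common direction in the loess ratios of infiltrating cells. Fcgr1 ran from 0.26 through 0.53 to 0.66 and was above 0 in 8 of 8 fractions, with a mean of 0.50 ± 0.05 (limma adjusted p = 1.4e-05, under 2-fold). Fcgr4 ran from -0.09 through 0.25 to 0.42 and was above 0 in 7 of 8, with a mean of 0.24 ± 0.06 (limma adjusted p = 0.0046). The brighter probe of Fcgr3, A_51_P328613, ran from -1.12 through -0.73 to -0.50, below 0 in 8 of 8. Its mean was -0.72 ± 0.069 (limma adjusted p = 1.1e-05).

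The 2 probes of Fcgr3 went opposite ways here. A_52_P408757 gave 0.36 at the lowest, 0.97 at the median and 1.12 at the highest, above 0 in 8 of 8 fractions (mean 0.90 ± 0.081, limma adjusted p = 6.8e-06). Their Cy3 readings parted too. After quantile normalisation, Cy3 of A_51_P328613 on infiltrating-cell arrays was 5.21-fold that on blood arrays, and that of A_52_P408757 was 1.69-fold. By medians of the background-subtracted Cy3 signal, not normalised between arrays, these folds were 10.8 and 4.29. The extracellular parts of Fcgr3 and Fcgr2b are much alike, probe sequences are not among the files used here, and whether a probe reads both genes was not tested. Fcer1g ran from -0.50 through 0.05 to 0.28, a mean of 0.027 ± 0.078 (limma adjusted p = 0.77), with 5 of 8 fractions above 0.

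**Figure D1:**
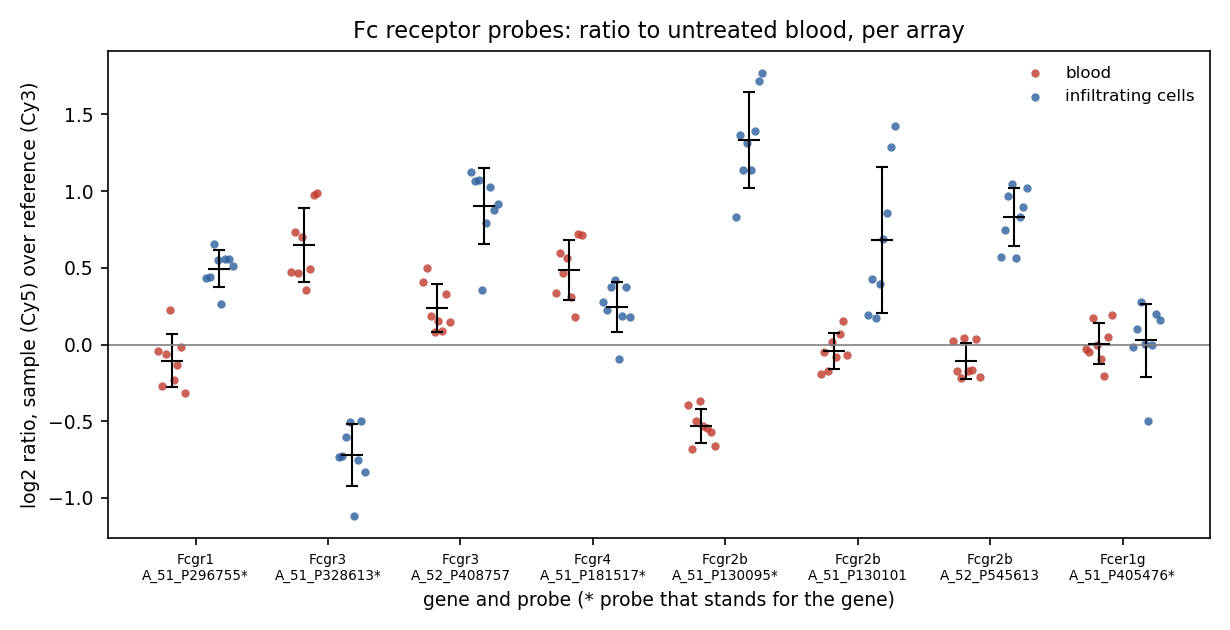
Log2 ratio of sample (Cy5) over untreated blood (Cy3) after loess normalisation for all 8 probes, with blood and infiltrating cells side by side. Points are arrays, and bars are the mean and SD of 8 arrays; the groups separate fully for Fcgr1, for the 3 Fcgr2b probes and for A_51_P328613, where infiltrating cells lie lower, while the other Fcgr3 probe lies higher in infiltrating cells.

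Set against each other, infiltrating cells and blood differed in 2 of the 5 genes at the same threshold, Fcgr2b higher and Fcgr3 lower, beside 23.9% of all genes (12.1% higher and 11.8% lower). Fcgr2b was 1.86 ± 0.11 higher on the log2 scale, which is 3.64-fold (n = 8 and 8, limma adjusted p = 5.2e-11). Its other probes were 0.72 ± 0.159 and 0.94 ± 0.08 higher, neither at 2-fold. Fcgr3 was lower by its brighter probe, at -1.37 ± 0.105 or 2.58-fold (limma adjusted p = 2.2e-09), and higher by its other probe, at 0.67 ± 0.099. The call on Fcgr3 is therefore a call on 1 probe: the mean of both gave -0.35, which was not called.

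Fcgr1 was 0.60 ± 0.076 higher in infiltrating cells (1.52-fold; limma adjusted p = 1.7e-06) and Fcgr4 -0.24 ± 0.089 (limma adjusted p = 0.022), both under the 2-fold line. The groups did not overlap for Fcgr1, Fcgr3 and Fcgr2b, as for 42.1% of all genes. They overlapped for Fcgr4 and for Fcer1g, whose difference was 0.022 ± 0.093 (limma adjusted p = 0.84). The median difference over all genes was 0.079.

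The group differences also rest on how the arrays were levelled. Centring each array on its median left the median gene at 1.46 higher in infiltrating cells, and centring on the spike-in probes left it at 1.13. Under these settings all 5 genes were called higher, Fcgr2b at 4.57 and 4.24, while Fcgr3 turned to 1.42 and 1.09, at or near the median gene, and Fcgr4 to 2.36 and 2.03. Of the genes called, 1485 were higher and 1450 lower under loess, 7377 and 334 under median centring, and 6506 and 569 under spike-in centring. The order of Fcgr2b, Fcgr1, Fcgr4 and Fcgr3, from highest to lowest, was the same in all 3.

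**Figure D2:**
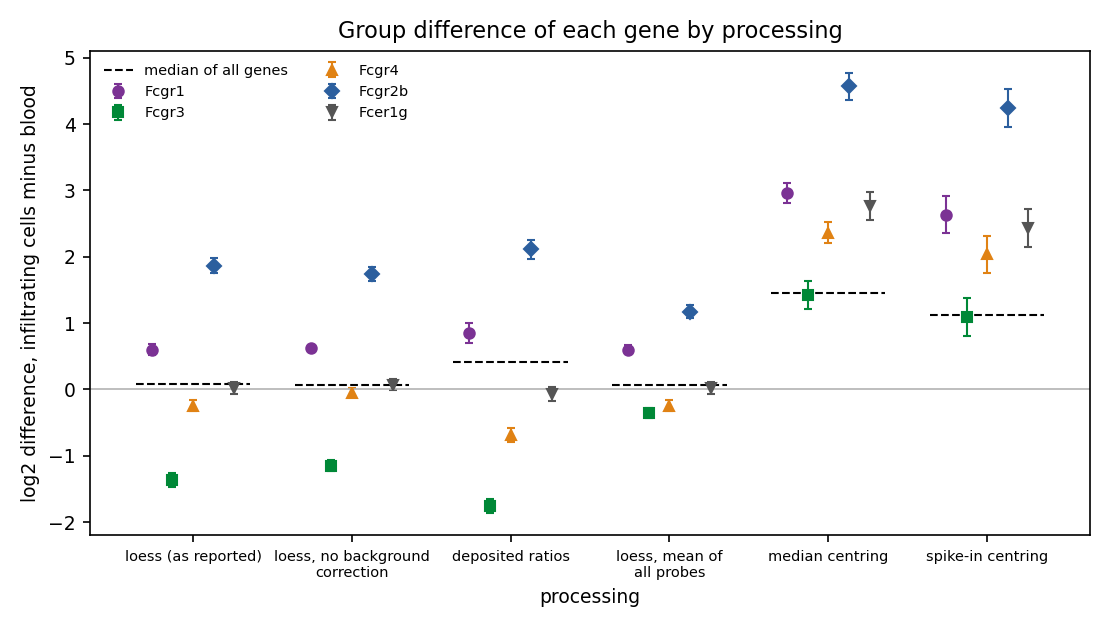
Difference of log2 ratio between infiltrating cells and blood for each gene (points, with SE) under 6 ways of processing, with the median of all genes as a dashed line. Fcgr2b is the highest of the 5 genes and Fcgr3 the lowest under each, and the sign of Fcgr3 and Fcgr4 turns under median and spike-in centring.

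Read in Cy5 alone, with no reference, all 5 genes were brighter in infiltrating cells. The background-subtracted signal of Fcgr1 was 22 to 57.5 scanner units in blood (median 41.5) and 1660 to 10154.5 in infiltrating cells (median 5320), 128-fold at the median. This fold divides by a dim blood signal, well above background on 7 of 8 blood arrays, and is imprecise. Fcgr3 went from 124.5 to 299 units (median 223) up to 3284.5 to 21827.2 (median 10600), 47.3-fold. Fcgr4 went from 62.5 to 155 (median 118) up to 2028.5 to 11300 (median 6440), 54.5-fold. The lowest fraction lay above the highest blood sample for each of these receptors. The whole Cy5 channel was brighter on these arrays, and the share of all genes that separate on this scale was not counted. After quantile normalisation 54.4% of all genes separated. The separation is therefore not a result particular to these receptors.

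The inhibitory receptor brightened in the same range. Fcgr2b stood at 61.1 to 136.3 units in blood (median 96.2) and at 2178.7 to 25848.5 in infiltrating cells (median 9150), which is 95.1-fold. At the median A_51_P130101 rose 51.1-fold and A_52_P545613 153-fold. The latter fold is imprecise, since A_52_P545613 had a blood median of 25.8 units and was well above background on 6 of 8 blood arrays. Fcer1g, already bright in blood at 699 to 1825 units (median 1220), reached 4338 to 20409.3 (median 12000), 9.82-fold. Sample 889 was the lowest infiltrating fraction for all 8 probes and sample 898 the highest, while sample 894 was the lowest blood sample for 6 of the 8. In RNA of whole tissue fractions, more cells of a type and more RNA per cell cannot be told apart.

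These folds hold the brightening of the whole channel. With Cy5 quantile-normalised, 3 of the 5 genes were called higher in infiltrating cells, beside 20.2% of all genes (36.2% in either direction): Fcgr1 by 1.98 ± 0.13 (limma adjusted p = 3.5e-11), Fcgr2b by 1.80 ± 0.162 (limma adjusted p = 4.8e-09) and Fcgr3 by 1.01 ± 0.118 (limma adjusted p = 2.3e-07). Fcgr4 was 0.93 ± 0.105 higher, just short of 2-fold. Fcer1g stood apart at -0.92 ± 0.104, beside a median of 0.249 over all genes. The groups did not overlap on this scale for any of the 5, as for 54.4% of all genes.

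Both Fcgr3 probes were higher here, the second by 1.33 ± 0.141. The call on Fcgr3 lay on the edge: it was lost, at 0.96 to 0.99, when blood sample 891, 894 or 896 or infiltrating sample 890, 891, 896, 897 or 898 was left out. Fcgr2b was called by A_52_P545613 (2.17 ± 0.185) and not by A_51_P130101 (0.83 ± 0.195). Scaling to the 75th percentile called the 4 receptors (2.05 to 2.84) with Fcer1g at 0.14. Spike-in centring called all 5, the receptors at 3.65 to 4.45 and Fcer1g at 1.74, with the median gene at 1.49. Genes called higher and lower numbered 2480 and 1974 after quantile normalisation, 3455 and 4244 after scaling and 7224 and 705 after spike-in centring. In every one of these settings each receptor stood above the median gene, by its brightest probe, and above Fcer1g.

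The Cy3 channel shows how much of the ratios came from the reference. The median Cy3 signal was 76 units on blood arrays and 408 on infiltrating-cell arrays for Fcgr1, 204 and 2210 for Fcgr3, and 119 and 621 for Fcgr4. It was 265 and 428 for Fcgr2b and 1640 and 1360 for Fcer1g. After quantile normalisation the 3 activating receptors were called higher in Cy3 on infiltrating-cell arrays, beside 5.37% of all genes (6.7% in either direction), by 1.24, 2.38 and 1.26 in that order. Fcgr2b differed by -0.12 by its 10-spot probe and by 0.97 by A_52_P545613, and Fcer1g by -0.98. The gain of Fcgr2b in the ratios was thus nearly all in Cy5 for the 10-spot probe. For the brighter probe of Fcgr3 the Cy3 gain of 2.38 exceeded the Cy5 gain of 1.01, while for A_52_P408757 the Cy3 gain, 0.76, was the smaller, beside 1.33 in Cy5.

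**Figure D3:**
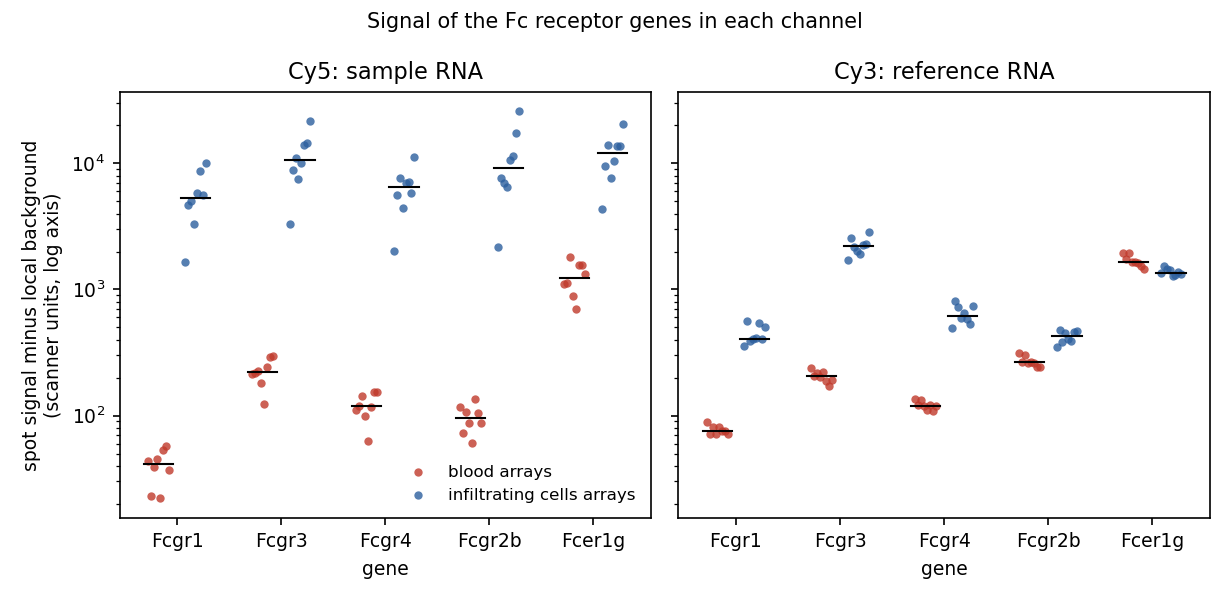
Background-subtracted spot signal in scanner units (log axis) for the probe that stands for each gene, in Cy5 (left) and Cy3 (right). Points are arrays and lines are medians. In Cy5 every infiltrating-cell array lies above every blood array for all 5 genes, on a scale where the whole channel was brighter. The share of all genes that separate so was not counted, so the separation is not a result particular to these genes. In Cy3 the same holds for the receptors, though Cy3 should hold the same reference by its label, while Fcer1g lies slightly lower at the median.

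Activating receptors were set against the inhibitory receptor within each array, where any shift common to an array cancels. In blood the log2 ratio of Fcgr3 exceeded that of Fcgr2b by 0.87 to 1.65 (median 1.05), and in infiltrating cells it lay below it, at -2.60 to -1.57 (median -2.12). The sign turned in the same way for Fcgr1 (0.30 to 0.60 in blood, -1.26 to -0.40 in infiltrating cells), Fcgr4 (0.72 to 1.37 and -1.59 to -0.56) and Fcer1g (0.33 to 0.85 and -1.63 to -0.84). All 4 differences were above 0 in 8 of 8 blood samples and in 0 of 8 fractions, and the groups did not overlap. These are not independent results, since all 4 subtract the same Fcgr2b probe, whose own mean went from -0.53 to 1.33. A gene near the reference in both groups gives the same turn, as Fcer1g did with means of 0.005 and 0.027. How many of all genes turn against Fcgr2b was not counted.

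The group difference was -1.26 for Fcgr1, -3.23 for Fcgr3, -2.11 for Fcgr4 and -1.84 for Fcer1g, so against Fcgr2b these genes were 2.4-fold, 9.4-fold, 4.31-fold and 3.58-fold lower in infiltrating cells than in blood. Each had an exact two-sided permutation p of 0.00016, the smallest that 8 against 8 can give, and an adjusted p of 0.00047 over the 12 tests made. Within a group, each exact two-sided sign-flip permutation p was 0.0078, the smallest that 8 arrays can give (adjusted p = 0.0078). All these tests subtract the same Fcgr2b probe, which had already separated the groups. They are therefore not separate support for a change in each of the other genes.

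**Figure D4:**
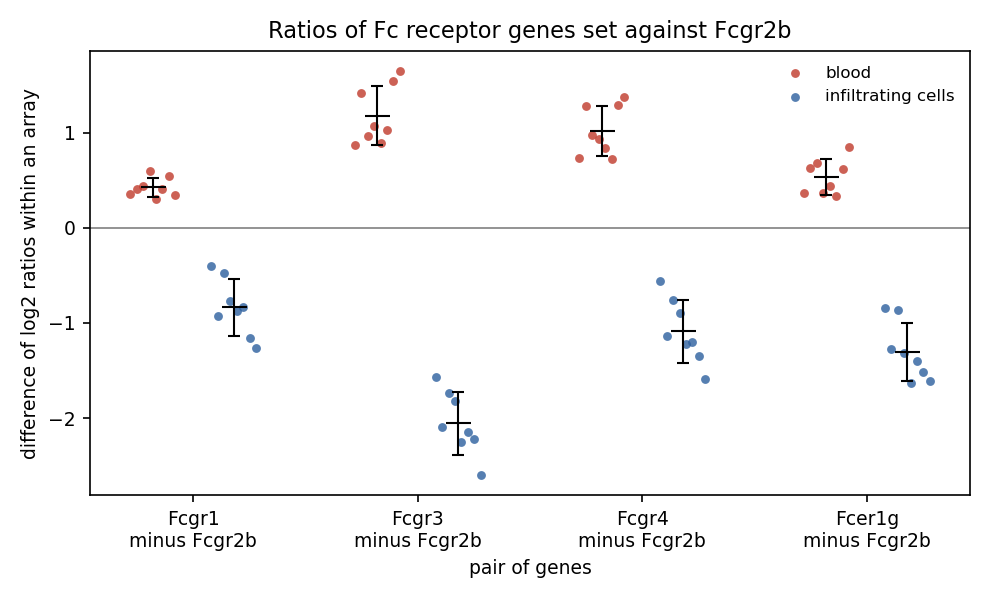
Difference between the log2 ratio of each gene and that of Fcgr2b on the same array (vertical axis), in blood and in infiltrating cells. Points are arrays and bars the mean and SD of 8 arrays. All blood values lie above 0 and all infiltrating-cell values below it. Each difference subtracts the same Fcgr2b probe, which itself separated the groups.

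How far this balance moved depended on the channel and the probe. In Cy5 alone, with no normalisation between arrays, the group difference against Fcgr2b shrank to -0.22 for Fcgr1 (exact permutation p = 0.19, adjusted p = 0.19 over 4 tests), -0.65 for Fcgr3 (adjusted p = 0.0029, exact permutation) and -0.80 for Fcgr4 (adjusted p = 0.0029, exact permutation), and the groups overlapped. For Fcer1g it was -2.70 (adjusted p = 0.00062, exact permutation), with no overlap. After plain subtraction with a floor these values were 0.45, -1.05, -0.94 and -3.43 in that order (adjusted p = 0.034, 0.00031, 0.0019 and 0.00031, exact permutation), with no overlap for Fcgr3 and Fcer1g. The direction for Fcgr1 thus turned with the background correction. In Cy3 alone the activating receptors differed by 1.38, 2.50 and 1.41, so much of the shift of their ratios against Fcgr2b was carried by the reference channel.

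With Fcgr2b read by A_51_P130101, the Cy5 differences were 0.72 for Fcgr1, 0.29 for Fcgr3 and 0.15 for Fcgr4 (adjusted p = 0.013, 0.2 and 0.6 over 30 tests, exact permutation). With A_52_P545613 they were 0.16, -0.27 and -0.42 (adjusted p = 0.42, 0.16 and 0.088, exact permutation). In the sample channel, a lower gain than that of Fcgr2b therefore passed the test for Fcgr3 and Fcgr4 with the 10-spot probe and with neither of the others, and for Fcgr1 with none. A lower gain of Fcer1g was found with all 3 Fcgr2b probes, at -2.70, -1.76 and -2.33 (adjusted p = 0.00037 each, exact permutation). In the ratios, Fcgr3 by its other probe differed from Fcgr2b by -0.05 with A_51_P130101 and -0.27 with A_52_P545613 (adjusted p = 0.8 and 0.1, exact permutation), and Fcgr1 by -0.12 with A_51_P130101 (adjusted p = 0.57, exact permutation).

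Across the samples of a group, the ratios of Fcgr3, by its brighter probe A_51_P328613, and Fcgr4 ran together. In infiltrating cells Pearson's r was 0.98 over 8 arrays (exact permutation p = 0.000322, adjusted p = 0.00645 over 20 relations), Spearman's rho 0.952 (exact permutation p = 0.00114, adjusted p = 0.0228), and r 0.958 without the 2 arrays farthest from the median. In blood r was 0.891 (exact permutation p = 0.00437, adjusted p = 0.0437), rho 0.81 (exact permutation p = 0.0218, adjusted p = 0.186), and r 0.763 without the 2 farthest. For Fcgr2b, r with Fcgr3 was -0.469 in blood and 0.222 in infiltrating cells (exact permutation p = 0.244 and 0.606). The other Fcgr3 probe, A_52_P408757, was not entered in these relations. Among the fractions it was lowest in sample 893, at 0.36, where Fcgr4 was highest, at 0.42.

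Fcgr1 ran with Fcgr2b in blood (r = 0.835, exact permutation p = 0.00863, adjusted p = 0.0476; rho 0.714, exact permutation p = 0.0576, adjusted p = 0.23; r 0.637 without the 2 farthest). It ran with Fcer1g in infiltrating cells (r = 0.87, exact permutation p = 0.00952, adjusted p = 0.0476; rho 0.786, exact permutation p = 0.0279, adjusted p = 0.186), a relation that rests on 2 arrays, since r was 0.188 without them. The other 16 relations did not pass after adjustment. Genes on 1 array share its normalisation, and slides of 4 arrays were too few for values within a slide.

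Over all 16 arrays, the genes whose log2 ratio was most like that of Fcgr3 among 12269 others were Tmbim6 (r = 0.984), Vcp (0.982) and Ifitm2 (0.981). For Fcgr2b they were Ctdnep1 (0.99), Ndufs3 (0.989) and Mrpl51 (0.989), and for Fcgr1 Slc25a4 (0.963), 1810009A15Rik (0.959) and Acbd6 (0.959). For Fcgr4 they were Tgfbi (0.901), Ugt1a6b (0.896) and Clec4a2 (0.891), and for Fcer1g Atl1 (0.785), Lzts3 (0.757) and Nop9 (0.736). The points share 2 groups and the reference, so for genes that differ between the groups these values follow the group means; with each group's mean removed they ran from 0.74 (Acbd6) to 0.846 (Tgfbi).

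The genes around the receptors were described from 8 lists of 98 genes, of which 78 were tested. Beside their counts stand the shares of all genes called. These were 0.504% higher and 0.244% lower in blood, and 9.33% and 10.1% in infiltrating cells against untreated blood. Between the groups they were 12.1% and 11.8%, and in quantile-normalised Cy5 20.2% and 16.1%. Of 23 tested kinases, adaptors and enzymes that act behind the activating receptors, none was called in blood; in infiltrating cells 0 were higher and 4 lower against untreated blood, led by the phospholipase Plcg2 (-1.90 ± 0.084, limma adjusted p = 3.3e-08). Between the groups 1 was higher, Malt1 (1.14 ± 0.096), and 3 lower, led by Lyn (-1.34 ± 0.149), with a list median of 0.059 beside 0.079 for all genes. In quantile-normalised Cy5 0 were higher and 7 lower. Of 5 subunits of the phagocyte oxidase none was called in any of the 4 comparisons, with medians of -0.09 in blood, -0.63 in infiltrating cells and -0.10 for the difference.

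Of 10 tested genes of the inhibitory pathway, Dok2, an adaptor that restrains Ras signalling, was higher between the groups (1.198 ± 0.088, limma adjusted p = 1.1e-09) and 2 were lower, led by its relative Dok3 (-1.72 ± 0.229). Inpp5d, the effector of Fcgr2b, was at -0.39 ± 0.112 and was not called in the ratios. In Cy5 2 of the 10 were higher, led by Inppl1, a relative of Inpp5d (2.61 ± 0.283, limma adjusted p = 7.7e-08), and 3 lower, led by Dok3 (-1.99 ± 0.101), with Inpp5d among them (-1.37 ± 0.383, limma adjusted p = 0.00339). Of 7 other inhibitory receptors tested, 0 were higher and 3 lower between the groups in the ratios, with a list median of -0.69. They were led by Cd22, an inhibitory receptor on B cells (-1.93 ± 0.281). In Cy5 2 were higher, led by Lilrb4a of myeloid cells (1.33 ± 0.185), and 2 lower.

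Among 9 other Fc receptors tested, none was higher between the groups and 4 were lower, led by the IgM receptor Fcmr (-4.31 ± 0.239, limma adjusted p = 2e-11), and Fcrla of B cells was already lower in blood (-1.22 ± 0.069, 1 of 2 called there). In Cy5 1 was higher, Fcgrt, the neonatal receptor that recycles immunoglobulin G (1.62 ± 0.139), and 6 lower. Of 10 other partners of the gamma chain and sister adaptors, Clec4n (Dectin-2) was higher (1.64 ± 0.146, limma adjusted p = 1.7e-08) and 2 were lower, led by Clec4d (-1.82 ± 0.265). The ligand list could not be described, with 1 of 9 genes tested, Jchain, at -0.45 ± 0.109.

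Of 13 factors and cytokines known to steer these receptors, 3 were higher and 0 lower between the groups, led by Ifngr1, a chain of the interferon gamma receptor (2.11 ± 0.126, limma adjusted p = 5.8e-11), with a list median of 0.55. In infiltrating cells against untreated blood 2 were higher, led by Cebpb (1.98 ± 0.087). In Cy5 6 were higher, led by Ifng (4.61 ± 0.27, limma adjusted p = 5.7e-12), whose ratio nevertheless lay at -0.81 between the groups. Spi1, which encodes PU.1, was at 0.06 in the ratios and 0.19 in Cy5, and was not called.

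Markers of many cell types differed between the groups, among them those of cells that carry these receptors. Some also differed in blood against untreated blood, where 0.504% of all genes were called higher and 0.244% lower. There 5 of 9 neutrophil markers were higher, led by Cxcr2 (2.24 ± 0.108). B cell markers were lower in 3 of 7, led by Cd79b (-1.54 ± 0.11). Of 7 platelet markers 3 were higher, and 1 each of 7 dendritic cell and 9 mast cell and basophil markers. Those of the other lists were not called there. Between the groups, 12.1% of all genes were called higher and 11.8% lower in the ratios, and 20.2% and 16.1% in Cy5. The ratio counts for natural killer markers (1 of 8) and for mast cell and basophil markers (1 of 9) lie near these shares. Of 14 macrophage and monocyte markers, 8 were higher and 0 lower in Cy5, led by the complement gene C1qc (6.00 ± 0.185), and 4 were higher and 1 lower, Lyz2 (-1.07 ± 0.201), in the ratios. Their summed share of the Cy5 signal was 2540 to 4360 per 1000000 in blood and 2130 to 3730 in infiltrating cells, and 7 of the 14 were above background on no blood array, C1qa, Mrc1 and Mertk among them. Neutrophil markers were lower (7 of 9, led by S100a8 at -3.96 ± 0.234), from 3190 to 9180 down to 376 to 1390 per 1000000.

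B cell markers were lower (7 of 7, led by Ms4a1 at -5.65 ± 0.282), from 464 to 1370 down to 85 to 150 per 1000000, with Cd79a above background on no infiltrating-cell array. Of 8 natural killer markers 1 was higher, Klrd1 (1.13 ± 0.257), and their share went from 68.9 to 148 up to 257 to 1080 per 1000000. Hepatoma markers took 6.49 to 13.5 per 1000000 of Cy5 in blood and 4540 to 7600 in the fraction. Of 7 dendritic cell markers 1 was higher between the groups, Itgax (1.29 ± 0.133), and 2 lower, led by Zbtb46 (-4.60 ± 0.407). Of 5 T cell markers 1 was lower, Cd3e (-1.19 ± 0.148), and of 9 mast cell and basophil markers 1, Hdc (-2.94 ± 0.112). The summed Cy5 share of T cell markers nevertheless went from 138 to 273 up to 240 to 966 per 1000000. That of mast cell and basophil markers was 38.9 to 107 in blood and 39.3 to 156 in the fraction. In Cy5 1 of these 9 was higher, Mcpt4 (1.60 ± 0.195), and 3 were lower.

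Markers of red cells and platelets were lower in the tumour fraction. Erythroid markers were lower in 6 of 8, led by Slc25a37 (-7.26 ± 0.172), and went from 44900 to 52200 down to 1460 to 2680 per 1000000 of Cy5. Platelet markers were lower in 6 of 7, led by Ppbp (-7.45 ± 0.146), and went from 4310 to 7150 down to 210 to 429. Of 5 fibroblast markers 2 were higher in the ratios, led by Dcn (2.15 ± 0.172), and 4 in Cy5, and 0 of 3 endothelial markers were called in the ratios. The part of these shifts in the values of the receptors was not tested.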

How the data were processed

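The 16 arrays had 2 colours. Per the file headers, the deposited scanner files come from Feature Extraction of Agilent, 10.5.1.1 (or 9.1.3.1, per the submitters' processing notes), and hold median spot and background intensities and a log10 ratio of Cy5 over Cy3; the deposited series values equal that ratio. Background was corrected with normexp (offset 50; mean intensities, foreseen at first, are not in the files) and log2 ratios were normalised by loess, with limma 3.58.1 (R 4.3.3, the data.table package, version 1.17.8). Of 43379 spots that are not controls, 87 to 153 per array carried an outlier flag and were left out; none was saturated. The normexp offset narrows folds of dim probes. Spots were averaged to 41174 probes, of which 23374 were named by matching RefSeq records to those of assembly GRCm38.p6; the array design is older, so no probe coordinates are given. Tested probes (26494) lay well above background on 4 of 8 arrays of a group in Cy5 or 8 of 16 in Cy3. The probe of highest mean intensity stands for a gene.

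Ratios of each group were tested against 0 and the groups against each other with limma, Benjamini-Hochberg adjusted over all tested probes; called means adjusted p under 0.05 and at least 2-fold. Cy5 and Cy3 alone were quantile-normalised between arrays and tested alike. Pairs of genes were tested by exact permutation. The code was tested on simulated data. Arrays are few, which limits precision.

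Genes and lists were chosen with earlier results of these data known. Named were the 5 genes with every probe, the called gene of largest difference per list, direction and comparison (1 such gene is not reported here), and the 3 genes most like each; Inpp5d, Spi1, Jchain and the markers named beside a count of genes above background on no array were chosen after their values were seen. Alternatives covered background correction, centring, the deposited ratios, the filter, probe choice, slides, the sample number as a block and leaving out each array; the reading of Cy3, Cy5 alone for pairs, and other probes for pairs were added after the data were seen.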

Additional observations from a re-analysis of the deposited data

Results flagged for a closer look

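Infiltrating-cell sample 894 lay apart from the other 7 for 2 genes. Its log2 ratio of Fcgr4 was -0.092, with the nearest other fraction at 0.179, and its ratio of Fcer1g was -0.497, with the nearest at -0.014. Of 10 groups of values checked for a single distant sample, 2 held one; chance marks about 1 in 20. Without this sample the group difference was still not called for either gene.

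The response of Fcgr3 and Fcgr2b differed between blood and infiltrating cells by limma's test of the difference. Fcgr3 went from above the reference in blood to below it in infiltrating cells, a difference of -1.369, and Fcgr2b from below to above, a difference of 1.864. For Fcgr3 this holds for 1 of its 2 probes. For Fcgr2b the call is that of the 10-spot probe. Its other probes, A_51_P130101 and A_52_P545613, were 0.722 and 0.936 higher, neither called, and stood at -0.04 and -0.105 in blood.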

How the results depend on the processing

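Of the 5 genes, the number called in blood, in infiltrating cells and for their difference was 1, 5 and 5 under median centring and under spike-in centring, and 0 and 1 for the last 2 with the mean of all probes (0, 1 and 2 as reported). In Cy5 it was 5 under spike-in centring. Reversed were Fcgr3 in infiltrating cells (1.43 and 1.09 under median and spike-in centring), its difference (1.42 and 1.09), that of Fcgr4 (2.36 and 2.03) and Fcer1g in Cy5 (1.74, spike-in). The mean of both probes put Fcgr3 in infiltrating cells at 0.09. Against Fcgr2b read by A_51_P130101, Fcgr1 stood at -0.065 in blood, -0.19 in infiltrating cells and -0.12 for the difference, Fcgr4 in infiltrating cells at -0.44 and Fcer1g in blood at 0.045; by A_52_P545613, Fcgr1 in blood at -0.001 and Fcer1g at 0.11. Fcgr3 by its other probe stood at 0.22 and 0.074 in infiltrating cells and -0.054 and -0.27 for the difference against these probes. Fcgr1 against Fcgr2b in Cy5 alone gave -0.22, and 0.44 after subtraction with a floor. The cause was not tested. Without each array in turn, the genes called numbered 0 in blood, 1 in infiltrating cells, 2 for the difference and 2 to 3 in Cy5; pair differences kept sign and call in every such run.

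Over all genes, 92 were called in blood and 53 without background correction, 270 with subtraction, 894, 936 and 956 under median centring, spike-in centring and the deposited ratios, and 61 and 152 on the first and second slide. Of these calls 62 were higher and 30 lower as reported, 10 and 884 under median centring, 10 and 926 under spike-in centring, 326 and 630 with the deposited ratios and 49 and 12 on the first slide. Calls in infiltrating cells went from 2392 (1147 higher, 1245 lower) to 4272, 7259 (6852 and 407), 6272 (5660 and 612) and 5759 with subtraction, median centring, spike-in centring and the deposited ratios; for the difference from 2935 to 5132, 7711, 7075 and 7006; in Cy5 from 4454 to 7699 (75th percentile) and 7929 (spike-in). The labels do not say what a shared sample number marks, and the samples were not taken as paired: correlations of same-numbered deviations ran from -0.166 to 0.20, with 4 of 8 over 0.1. As a hint from the data, 5 of 8 samples correlated best with their own number. With the number as a replicate block, 2 of the 5 genes and 2935 genes in all were called for the difference, and 3 and 4454 in Cy5. Taking the slide as a random block left 0, 1 and 2 genes called; each slide holds 1 group. Dim probes limit Fcgr1 and A_52_P545613 in blood, well above background on 7 and 6 of 8 arrays.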
